A study of Mus musculus with 6 samples.

Results

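The genes described here are the TAM receptors, their bridging ligands and genes of the engulfment of dying cells. They were chosen by name, and 8 of the 9 listed genes had a value among the 16344 genes measured: the receptors Mertk, Axl and Tyro3, the ligands Gas6, Pros1 and Mfge8, and the engulfment genes Elmo1 and Lrp1. Stab2, a receptor gene known from sinusoidal endothelium, was not analysed here. RNA was sequenced from 3 AZD7507 and 3 Vehicle mouse tumours, labelled high-grade serous ovarian tumour at endpoint. Every animal was syngeneic to the injected mouse line 60577, carried its tumour in the abdominal cavity and received carboplatin in 3 weekly cycles after 21 days of growth. AZD7507, an inhibitor of the macrophage growth factor receptor CSF1R, was then given by gavage each day for 84 days. For the Vehicle animals the labels state the word Vehicle and no schedule of their own. The labels state no strain, age or sex and no animal for a tumour, and all tumours descend from 1 cell line.

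Cells that die by apoptosis expose phosphatidylserine, a lipid that living cells keep on the inner face of their membrane. GAS6 and protein S bind this lipid with their vitamin K-dependent Gla domain and bind the receptor tyrosine kinases TYRO3, AXL and MERTK with their other end, so that they bridge the dying cell to the phagocyte. MERTK is the member of this receptor family best known from macrophages, whereas AXL and TYRO3 are also found on many cells of connective tissue, epithelium and tumours. MFGE8 makes a similar bridge to integrins, and ELMO1 works with a DOCK protein to activate RAC1 and form the engulfing cup.

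Values are log2 RPKM, that is, reads per length of gene and per size of library on a log scale, so a difference of 1 is a doubling. They were normalized by the authors with cqn, which also adjusts for GC content. The depth of the libraries is unknown, so the only error available is the spread between 3 tumours a group, which may be technical where tumours are not from separate animals. Differences are AZD7507 minus Vehicle, tested with limma over all 16344 genes with a Benjamini-Hochberg threshold of 0.05. Means are given ± SD with n = 3 in each group.

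The target of the drug and other macrophage transcripts had lower levels with AZD7507. Csf1r was at 2.57, 2.78 and 1.71 in AZD7507 tumours and at 4.85, 5.47 and 4.59 in Vehicle tumours, and fell by 2.62 (SE 0.32, limma adjusted p 0.0345), a call that was lost without any 1 library (limma adjusted p 0.067 to 0.147) and with a constant prior variance (limma adjusted p 0.0593). The CSF1R ligand genes Csf1 and Il34 did not pass, and with 1 library left out in turn their differences ran from -0.04 to 0.33 and from 0.01 to 0.59. Summed over 15 macrophage markers, expression ran from 94.2 to 228 RPKM in AZD7507 tumours and from 451 to 737 RPKM in Vehicle tumours, and no marker had a higher mean with AZD7507. The 6 pan-leukocyte markers summed to 13.7 to 30.3 RPKM with AZD7507 and 44.0 to 70.4 RPKM with Vehicle. In bulk tumour RNA, fewer cells of a type and less RNA per cell cannot be told apart. Mesothelial and epithelial genes were present, with Wt1 between 6.13 and 6.72 and Krt18 between 6.89 and 7.47 over the 6 libraries. Pax8, a defining marker of the serous lineage, lay between -3.89 and -2.09. Whether the mesothelial and epithelial transcripts came from tumour cells was not tested. Pancreatic acinar transcripts were high in 1 library of each group, at a mean log2 level of 9.19 in AZD7507 2 and 9.04 in Vehicle 2. In the other libraries that level was -0.28 or lower. Results that rest on this pair are therefore also given without it or without 1 of its libraries.

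None of the 8 clearance genes passed over all genes. The share of all genes called was 0.337% lower and 0.0184% higher, which is 55 and 3 genes. At an unadjusted p under 0.05, 2 of the 8 had a lower mean with AZD7507 (Mertk and Lrp1), where 5.49% of all genes did, and none had a higher one, where 3.31% did. The 2 groups did not overlap for Mertk and Lrp1, lower with AZD7507, and for Tyro3, higher with AZD7507, against 8.02% and 7.34% of all genes in these directions. Over the 8 genes the median difference was -0.35, with 6 below 0, beside a median of 0.03 over all genes and 45.5% of all genes below 0. Calls over all genes depended on single libraries: without AZD7507 1, AZD7507 2 or AZD7507 3 there were 14, 1 and 2 lower calls and no higher ones, and without Vehicle 1, Vehicle 2 or Vehicle 3 no gene was called.

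**Figure D1:**
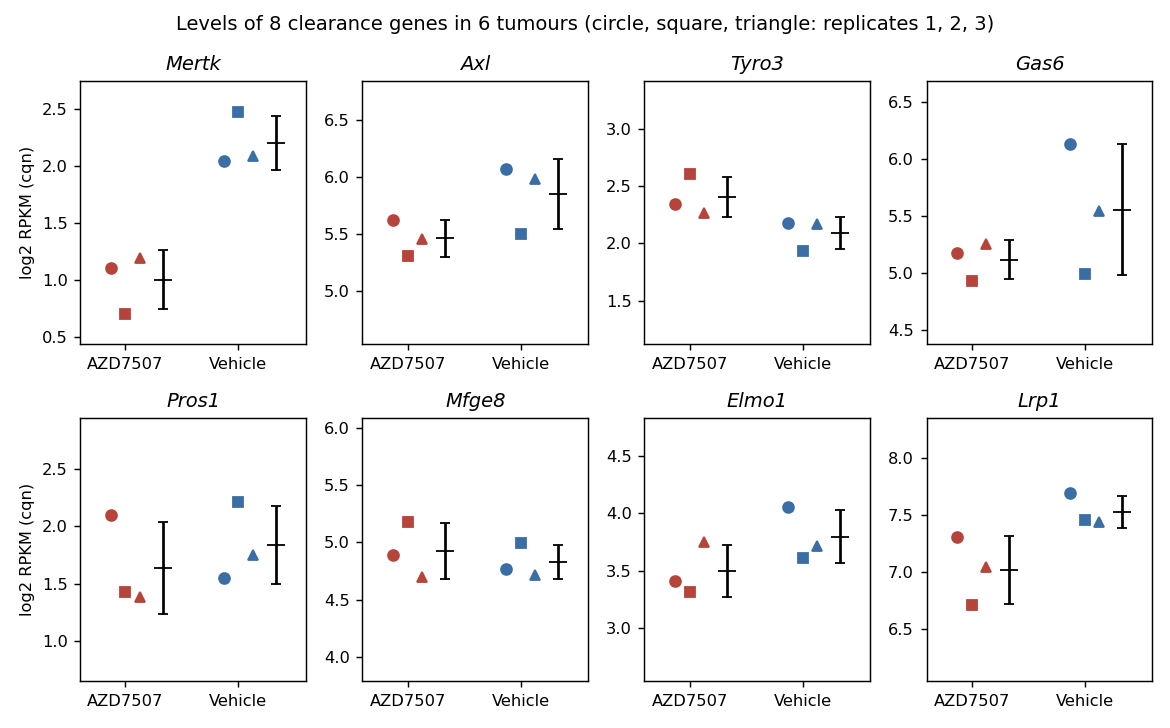
Log2 RPKM of the 8 genes in each tumour, AZD7507 in red and Vehicle in blue, with the group mean ± SD in black; every panel spans 2.3 log2 units. Mertk and Lrp1 lie lower in all AZD7507 tumours, Tyro3 lies higher in all of them, and the groups of the other 5 genes overlap.

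Mertk, which encodes the TAM receptor best known from macrophages, had the largest difference of the 8 genes. It was at 1.10, 0.71 and 1.19 in AZD7507 tumours and at 2.04, 2.47 and 2.08 in Vehicle tumours. The highest AZD7507 tumour was thus below the lowest Vehicle tumour by more than the spread within either group. The means were 1.0 ± 0.26 with AZD7507 and 2.20 ± 0.24 with Vehicle, a difference of -1.20 (95% interval -1.65 to -0.75, SE 0.19), or a 2.29-fold lower RPKM. Its limma adjusted p was 0.068, which misses the threshold, and its unadjusted p of 0.000367 ranked 87 among 16344 genes. With limma's array weights the difference was -1.02 and passed (limma adjusted p 0.022), and without 1 library the limma adjusted p ran from 0.137 to 0.216. The lowest library for Mertk, AZD7507 2, and the highest, Vehicle 2, were the acinar-rich pair. The Mertk difference was -1.05 without AZD7507 2 and -1.06 without Vehicle 2. In the remaining libraries Mertk was at 1.10 and 1.19 with AZD7507 and at 2.04 and 2.08 with Vehicle. Mertk (ENSMUSG00000014361) is a protein-coding gene on the plus strand of chromosome 2 of GRCm38, at 128698956 to 128802894.

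Axl encodes the receptor with the highest affinity for GAS6 and was the most abundant of the 3 receptors. It was at 5.62, 5.31 and 5.46 in AZD7507 tumours and at 6.07, 5.51 and 5.99 in Vehicle tumours. Vehicle 2 lay among the AZD7507 tumours, so the groups overlapped. The means were 5.46 ± 0.16 and 5.85 ± 0.31, with a difference of -0.39 (95% interval -0.80 to 0.02, limma adjusted p 0.59). Without both acinar-rich libraries, which were the lowest of their group for Axl, the difference was -0.49 (limma adjusted p 0.156). Axl (ENSMUSG00000002602) lies on chromosome 7 at 25757273 to 25788705 on the minus strand.

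Tyro3, the receptor known for its part in the nervous system and in the restraint of type 2 immunity, had a positive difference. It was at 2.35, 2.61 and 2.27 with AZD7507 and at 2.18, 1.93 and 2.17 with Vehicle. The groups did not overlap, but the gap between them was small beside the spread within each. With means of 2.41 ± 0.18 and 2.09 ± 0.14 the difference was 0.32 (95% interval -0.01 to 0.65, limma adjusted p 0.588). The extremes of Tyro3 were both acinar-rich libraries, and without them the difference was 0.14 (limma adjusted p 0.602). Tyro3 (ENSMUSG00000027298) lies on chromosome 2 at 119797733 to 119818104 on the plus strand.

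The receptors were set against each other within each library, which removes whatever scales a whole library. The level of Mertk minus that of Tyro3 was -1.24, -1.90 and -1.08 in AZD7507 tumours and -0.13, 0.54 and -0.08 in Vehicle tumours. Mertk was thus below Tyro3 in every AZD7507 tumour, by at least 1.08, and within 0.54 of it in every Vehicle tumour. The change in this log2 ratio was -1.51. Its extremes were the acinar-rich libraries, and without both of them the change in Mertk minus Tyro3 was -1.05. Mertk minus Axl was -4.52, -4.60 and -4.27 with AZD7507 and -4.03, -3.03 and -3.90 with Vehicle, a change of -0.81. That change was -0.50 without Vehicle 2 and -0.43 without both acinar-rich libraries. Axl minus Tyro3 changed by -0.71, and by -0.53 without AZD7507 2, its lowest library. In each of these 3 ratios the groups did not overlap, and each had p = 0.1 in a 2-sided exact permutation test, the smallest that 3 against 3 tumours can give (0.133 after adjustment over the 4 pairs of genes compared).

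**Figure D2:**
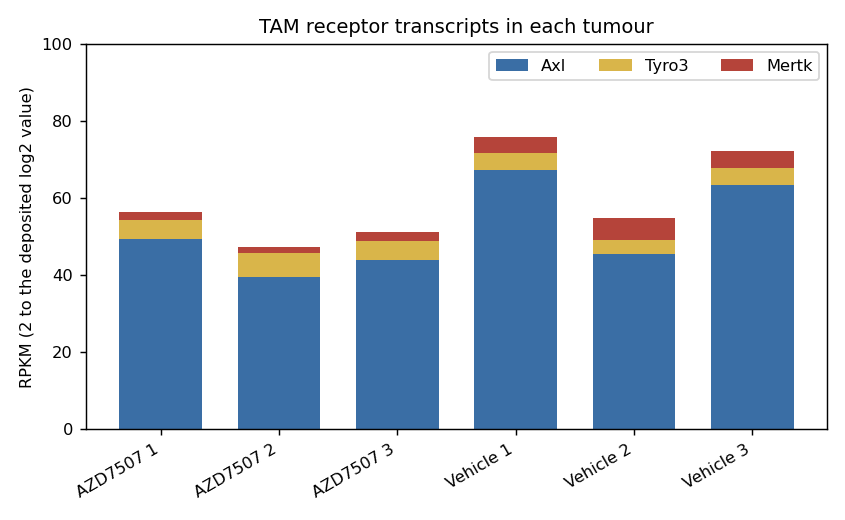
Stacked RPKM of Axl, Tyro3 and Mertk in each tumour, with 2 raised to the deposited log2 value. Axl makes up most of every bar, the Mertk segment is thinner in all AZD7507 tumours, and the bar of Vehicle 2 is nearer to the AZD7507 tumours than to the other Vehicle tumours.

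On the linear scale the 3 receptors summed to 56.5, 47.3 and 51.2 RPKM in AZD7507 tumours and to 75.9, 54.8 and 72.2 RPKM in Vehicle tumours. These sums overlapped because of Vehicle 2. Axl made up 83.7% to 87.2% of the sum with AZD7507 and 82.9% to 88.6% with Vehicle. Mertk made up 3.81%, 3.46% and 4.47% with AZD7507 and 5.43%, 10.1% and 5.88% with Vehicle. The share of Tyro3 was 9.0%, 12.9% and 9.43% with AZD7507 and 5.96%, 6.97% and 6.22% with Vehicle. Neither the Mertk nor the Tyro3 share overlapped between the groups, and the Axl share did.

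Gas6, which encodes the ligand of all TAM receptors, was at 5.18, 4.93 and 5.25 in AZD7507 tumours and at 6.13, 4.99 and 5.55 in Vehicle tumours. The Vehicle tumours spread widely, and Vehicle 2 lay within the AZD7507 range. The means were 5.12 ± 0.17 and 5.56 ± 0.57, with a difference of -0.44 (95% interval -1.07 to 0.20, limma adjusted p 0.727). Single Vehicle libraries moved the Gas6 difference, which was -0.15 without Vehicle 1 and -0.72 without Vehicle 2. Without both acinar-rich libraries the Gas6 difference was -0.62 (limma adjusted p 0.23). Gas6 (ENSMUSG00000031451) lies on chromosome 8 at 13465374 to 13494490 on the minus strand and shares 34 exonic bases with Tmem255b on the other strand, and the strand setting of the counting is not given in the sources used here.

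Pros1, which encodes protein S, the anticoagulant ligand of TYRO3 and MERTK, was low. It was at 2.10, 1.43 and 1.39 with AZD7507 and at 1.55, 2.21 and 1.75 with Vehicle. The groups overlapped broadly. The difference was -0.20 (95% interval -0.79 to 0.40, limma adjusted p 0.878), and it was 0.094 without both acinar-rich libraries. Leaving out 1 library gave Pros1 differences from -0.43 without AZD7507 1 to -0.010 without Vehicle 2. Pros1 (ENSMUSG00000022912) lies on chromosome 16 at 62854307 to 62929346 on the plus strand. Gas6 exceeded Pros1 by 3.08, 3.50 and 3.87 in AZD7507 tumours and by 4.58, 2.78 and 3.80 in Vehicle tumours, so Gas6 was the more abundant ligand transcript in every tumour. This log2 ratio changed by -0.24 (2-sided exact permutation test, p = 0.9), and by 0.19 without Vehicle 1.

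Mfge8, which encodes the bridge from phosphatidylserine to integrins, had the smallest range of the 8 genes over the 6 libraries, at 0.48. It was at 4.89, 5.18 and 4.70 with AZD7507 and at 4.77, 4.99 and 4.71 with Vehicle. The highest tumour of each group was the acinar-rich one. The difference was 0.10 (95% interval -0.26 to 0.46, limma adjusted p 0.902). Mfge8 (ENSMUSG00000030605) lies on chromosome 7 at 79133768 to 79149060 on the minus strand. Of the integrin genes whose products bind MFGE8, Itgav differed by 0.13, Itgb3 by -0.10 and Itgb5 by -0.57, and none passed. The Itgb5 groups did not overlap, as for 8.02% of all genes in this direction (limma unadjusted p 0.00711, adjusted p 0.276).

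Lrp1 encodes a large endocytic receptor that binds calreticulin on dying cells, and its level was above that of 99.2% of all genes. It was at 7.31, 6.71 and 7.05 in AZD7507 tumours and at 7.69, 7.45 and 7.44 in Vehicle tumours. The groups did not overlap, and AZD7507 2 was the lowest library. With means of 7.02 ± 0.30 and 7.53 ± 0.14 the difference was -0.50 (95% interval -0.91 to -0.09, limma adjusted p 0.452). Without AZD7507 2, an acinar-rich library, the Lrp1 difference was -0.35 (limma unadjusted p 0.0562, adjusted p 0.646). Lrp1 (ENSMUSG00000040249) lies on chromosome 10 at 127538161 to 127621148 on the minus strand. Calr, the calreticulin gene, was at 7.72, 7.67 and 7.96 with AZD7507 and at 7.27, 7.56 and 7.33 with Vehicle. These groups did not overlap, as for 7.34% of all genes in this direction. The Calr difference of 0.39 did not pass (limma adjusted p 0.471).

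Elmo1, whose product joins DOCK proteins in activating RAC, was at 3.41, 3.32 and 3.75 with AZD7507 and at 4.05, 3.61 and 3.72 with Vehicle. AZD7507 3 lay within the Vehicle range. The difference was -0.30 (95% interval -0.69 to 0.09, limma adjusted p 0.678), and it was -0.17 without Vehicle 1. Elmo1 (ENSMUSG00000041112) lies on chromosome 13 at 20090596 to 20608353 on the plus strand, and 3.20% of its exonic bases are shared with the antisense model Gm32036, whose reads cannot be told apart from those of Elmo1 without strand.

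In AZD7507 tumours the order of the mean levels was Lrp1 (7.02), Axl (5.46), Gas6 (5.12), Mfge8 (4.92), Elmo1 (3.49), Tyro3 (2.41), Pros1 (1.64) and Mertk (1.0). In Vehicle tumours it was Lrp1 (7.53), Axl (5.85), Gas6 (5.56), Mfge8 (4.82), Elmo1 (3.79), Mertk (2.20), Tyro3 (2.09) and Pros1 (1.84). Mertk was the lowest of the 8 with AZD7507 and the sixth in Vehicle tumours. Mertk, Tyro3 and Pros1 each had a range of their own in AZD7507 tumours, and their values overlapped one another in Vehicle tumours. Axl and Gas6 overlapped in Vehicle tumours, and Gas6 and Mfge8 overlapped in both groups. Levels are compared as the table's RPKM unit gives them, per length, but how cqn was set to treat length is not given in the sources used here.

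**Figure D3:**
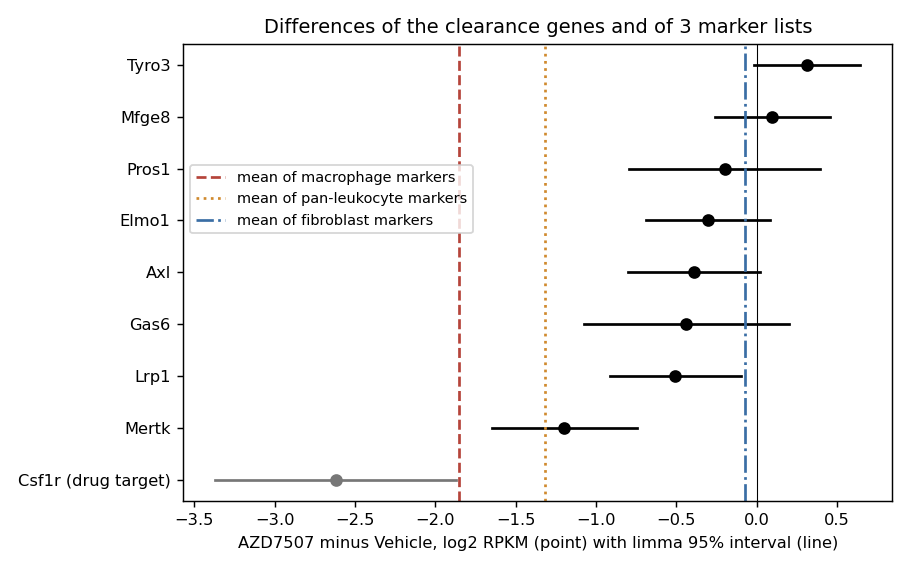
AZD7507 minus Vehicle difference in log2 RPKM with its limma 95% interval for the 8 genes and for Csf1r, with vertical lines at the mean differences of macrophage (-1.85), pan-leukocyte (-1.32) and fibroblast markers (-0.07). The interval of Mertk holds the pan-leukocyte mean, while the intervals of the other 7 genes lie above it.

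Each gene was set beside the marker lists over the 6 libraries. Likeness was the root mean square difference between 2 log2 profiles, each centred on its own mean, and it describes 6 libraries that share their normalization. Mertk lay nearest to the pan-leukocyte mean (0.39), then to the lymphatic and sinusoidal endothelial (0.43) and dendritic cell (0.53) means of 3 measured markers each. The macrophage (0.56), smooth muscle and pericyte (0.58), fibroblast (0.61) and endothelial (0.66) means followed closely, so this measure did not set the macrophage list apart from stromal lists for Mertk. The other 7 genes lay farther from the macrophage mean, at 0.83 for Lrp1 to 1.18 for Tyro3. Gas6 (0.40) and Elmo1 (0.30) lay nearest to the mesothelial mean, Tyro3 to the epithelial mean (0.19) and Mfge8 to the endothelial mean (0.13). Axl (0.25) and Lrp1 (0.26) lay nearest to the dendritic cell mean and Pros1 to the lymphatic and sinusoidal endothelial mean (0.24), with the dendritic cell mean (0.25) and the fibroblast and endothelial means (0.26 each) close behind. The markers of these 2 short lists did not change together. Itgax, Zbtb46 and Ccr7 differed by -1.44, 0.01 and 0.41, and Lyve1, Flt4 and Pdpn by -1.37, 0.18 and -0.06. Nearness to either mean therefore does not assign a gene to that cell type. The endothelial and fibroblast means themselves ranged over only 0.53 and 0.69 log2 units, and the epithelial and mesothelial means over 0.83 and 0.88. A steady gene therefore lies near all of these means, whereas the macrophage mean ranged over 3.08. For Gas6 and Elmo1 the dendritic cell mean was also close behind the mesothelial mean, at 0.43 and 0.35. Nearness to any of these narrow means likewise assigns no gene to a cell type.

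**Figure D4:**
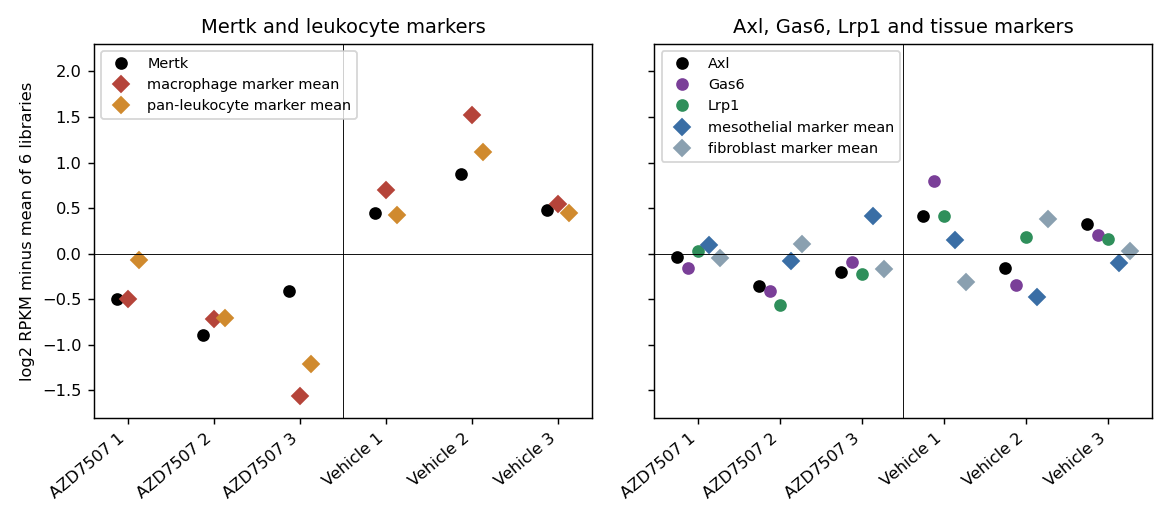
Log2 RPKM of each library minus the mean of the 6 libraries, for Mertk with the macrophage and pan-leukocyte marker means on the left and for Axl, Gas6 and Lrp1 with the mesothelial and fibroblast means on the right. Mertk and both leukocyte means peak in Vehicle 2, where Axl and Gas6 are the lowest of their group.

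Mertk and the macrophage markers shared their highest library, Vehicle 2, but not their lowest. AZD7507 3 was the lowest library for the mean of the macrophage markers, at 1.39, while Mertk was at 1.19 there, its highest value in an AZD7507 tumour. The level of Mertk minus the macrophage mean was -1.36, -1.53 and -0.20 in AZD7507 tumours and -1.61, -2.01 and -1.42 in Vehicle tumours. This difference was thus higher by 0.65 with AZD7507, with groups that overlapped (2-sided exact permutation test, p = 0.2, adjusted p = 0.2), and by 0.24 without AZD7507 3. Relative to the macrophage mean the other 7 genes were higher by 1.35 for Lrp1 to 2.17 for Tyro3, each with groups that did not overlap and p = 0.1, the smallest this exact test allows (adjusted p = 0.114 over the 8 genes). For Gas6 it was 1.41, and 0.83 without Vehicle 2 (exact permutation p = 0.3). The markers' own difference of -1.85 enters each of these values. The macrophage mean itself ran from 1.39 to 2.46 with AZD7507 and from 3.51 to 4.48 with Vehicle. A gene with a steady level would therefore also give groups that do not overlap and p = 0.1 in this exact test. The result does not set the 7 genes apart from other genes, for which this measure was not computed.

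The rule for likeness named 5 genes for each clearance gene whose range over the 6 libraries was above 1, which were Mertk and Gas6. The profiles nearest to Mertk were those of Nod2, a sensor of bacterial cell wall (0.14), Itga4, an integrin of leukocytes (0.14), Plbd1 (0.15), Gab3, an adaptor of CSF1R signalling (0.16), and Dock8, a leukocyte exchange factor (0.17). Plbd1 and Dock8 fell, by 1.17 and 1.11 (limma adjusted p 0.0378 and 0.0491), while Nod2 and Gab3 had means below 0 in both groups. The profiles nearest to Gas6 were those of Pcdhga7, Col20a1, Ttll3, Zfp398 and Lncpint, at 0.09 to 0.11. None of these 5 passed.

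The rest of the clearance pathway was read from 8 lists by role, with values for 79 of 85 genes. Of these 5 fell (Stab1, C1qa, C1qb, C1qc and Cx3cr1) and none rose, where 0.337% and 0.0184% of all genes did. The median difference of the 79 genes was -0.11, beside 0.03 over all genes. At an unadjusted p under 0.05, 21 had a lower and 3 a higher mean with AZD7507, where 5.49% and 3.31% of all genes did. The 3 C1q genes, Cx3cr1, Cd14 and Msr1 are also macrophage markers here, and the part of macrophage content in these differences was not tested. No call held without AZD7507 2, AZD7507 3 or any 1 Vehicle library, nor without both acinar-rich libraries, and without AZD7507 1 only those of Stab1, C1qa and Cx3cr1 held. With a constant prior variance the calls of Stab1 and C1qc were lost (limma adjusted p 0.0616 and 0.0556).

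**Figure D5:**
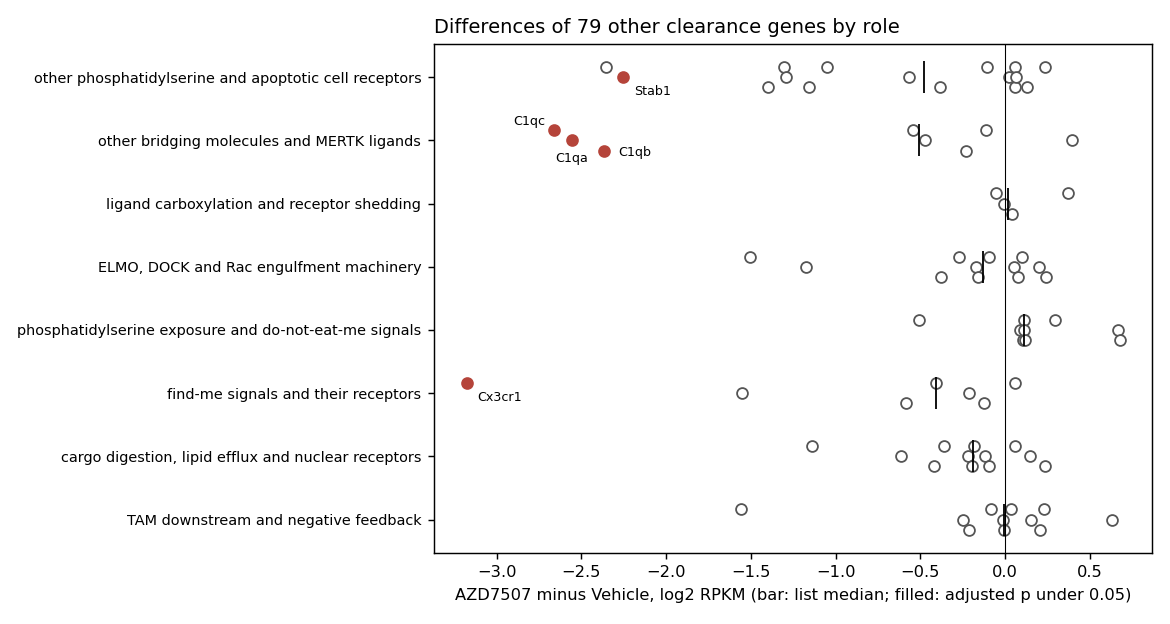
AZD7507 minus Vehicle difference in log2 RPKM of 79 other clearance genes, 1 circle a gene, by role, with a bar at each list's median. The 5 filled circles are the genes that passed (limma adjusted p under 0.05), all lower with AZD7507, in 3 of the 8 lists.

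Other receptors of dying cells included 1 that fell. Stab1, a scavenger receptor for phosphatidylserine and sister gene of Stab2, was at 3.09, 2.63 and 1.96 in AZD7507 tumours and at 4.72, 5.12 and 4.60 in Vehicle tumours, and fell by 2.25 (SE 0.28, limma adjusted p 0.0345). Cd300a, an inhibitory phosphatidylserine receptor gene, differed by -1.16 and Havcr2, which encodes TIM-3, by -2.35, without passing (limma adjusted p 0.0517 and 0.0525). With a pseudocount of 1 these differences were -0.76 and -1.06, and Cd300a passed (limma adjusted p 0.0483), as it did with a pseudocount of 0.1, array weights or a constant prior variance (limma adjusted p 0.0488, 0.0125 and 0.0414). The groups of both did not overlap, as for 6 of the 16 measured genes of this list in the lower direction, beside 8.02% of all genes. Of the 16 measured genes of this list 10 had a difference below 0, beside 45.5% of all genes, with a median of -0.48.

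Other bridging molecules held 3 genes that fell, all of C1q, the complement protein that also coats dying cells. C1qa fell by 2.56, C1qb by 2.37 and C1qc by 2.66 (limma adjusted p 0.0207 to 0.0284). The remaining measured genes of that list were Calr at 0.39, Anxa1 at -0.11, Lgals3, a MERTK ligand gene, at -0.23, Tub at -0.47 and Thbs1, the thrombospondin gene, at -0.55. For the enzymes that make and cut the system, Ggcx, the carboxylase that activates the Gla domains of GAS6 and protein S, differed by -0.01, Adam17, whose product sheds MERTK, by -0.05, and Adam10 by 0.04, values that changed sign with the library left out. Vkorc1l1, a vitamin K reductase gene, was at 3.35, 3.37 and 3.43 with AZD7507 and at 3.04, 2.86 and 3.15 with Vehicle, a difference of 0.37 (limma adjusted p 0.352).

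No gene of the engulfment machinery passed, and the leukocyte forms had the largest differences. Dock2, the partner of ELMO1 in leukocytes, was at 2.58, 2.14 and 1.65 in AZD7507 tumours and at 3.40, 4.08 and 3.41 in Vehicle tumours, a difference of -1.51 (limma adjusted p 0.0996). Rac2, the RAC of blood cells, differed by -1.17 (limma adjusted p 0.393) and Rhog by -0.38 (limma adjusted p 0.561), and these values were -0.75 without AZD7507 2 for Rac2 and -0.23 without Vehicle 2 for Rhog. The groups of Dock2, Rac2 and Rhog did not overlap. Of the 12 genes 4 did not overlap in the lower direction, Dock1 among them, beside 8.02% of all genes. In the higher direction 1 did not, Crkl, beside 7.34% of all genes. The broadly expressed Dock1, Rac1 and Crk differed by -0.16, -0.09 and 0.10. The median of the 12 genes was -0.13.

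No gene of phosphatidylserine exposure or of signals against engulfment passed. Of the 9 measured 8 had a difference above 0, as did 8909 of all 16344 genes. Xkr8, a phosphatidylserine scramblase gene, differed by 0.29 (limma adjusted p 0.611) and by 0.19 without Vehicle 2. Xkr4 differed by 0.68 (limma adjusted p 0.796), by 0.13 without AZD7507 3 and by 1.25 without AZD7507 2. Tmem30a and Cd47, the last a signal against engulfment, differed by 0.11 and 0.10. Sirpa, the myeloid receptor for CD47, was at 4.13, 4.05 and 4.09 with AZD7507 and at 4.46, 4.87 and 4.47 with Vehicle, a difference of -0.51 (limma adjusted p 0.272). Among find-me signals Cx3cr1, the fractalkine receptor gene, fell by 3.18 (limma adjusted p 0.0207), while P2ry6, a nucleotide receptor gene, differed by -1.55 and Gpr132 by -0.58 (limma adjusted p 0.0638 and 0.73), the last by -0.23 without Vehicle 2. The ligand gene Cx3cl1 differed by 0.06.

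After engulfment the phagocyte exports cholesterol, and 3 ATP-binding cassette genes of lipid export had the smallest p of that list without passing. Abca1 differed by -1.14, Abcg1 by -0.62 and Abca7 by -0.36 (limma adjusted p 0.172, 0.237 and 0.362), each with groups that did not overlap. Of the 12 genes of this list 4 did not overlap in the lower direction, Nr1h2 among them, beside 8.02% of all genes. The nuclear receptor genes Nr1h3, Nr1h2 and Pparg differed by -0.12, -0.20 and 0.05. Among genes downstream of the TAM receptors, Vav1, an exchange factor of blood cells, was at 0.78, 0.55 and 0.03 with AZD7507 and at 1.94, 2.23 and 1.86 with Vehicle, a difference of -1.56 (limma adjusted p 0.0525). Ifnar1 differed by -0.25 (limma adjusted p 0.669), and by -0.15 without Vehicle 2. The feedback inhibitor genes Socs1 and Socs3 differed by 0.15 and -0.08.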

How the data were processed

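RNA was measured in 6 tumours, 3 AZD7507 and 3 Vehicle, grouped by the treatment label, with replicates numbered in record order. The authors deposited log2 RPKM values normalized with cqn, as the deposited table's name says. The submitters' processing notes name BWA 0.7.15-r1140, HTSeq, mm10 and GRCm38. The annotation release, strand setting, gene filter and cqn settings are not given in the sources used here. The quartiles of the libraries are nearly equal, so a global change in RNA cannot be seen. Depth is unknown, so no counting interval is given.

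Symbols matched 16306 of 16344 identifiers, and coordinates are those of GENCODE M21. The deposited log2 values went unchanged into limma 3.58.1 in R 4.3.3 (trended, robust prior), Benjamini-Hochberg over all genes, 2-sided, a procedure also tested on simulated data. Differences between genes within a library were tested with exact permutation over the 20 splits of 3 against 3. The genes and lists were chosen with earlier results of these data known. Named were the 8 genes, Csf1r, Csf1 and Il34, the 3 genes of smallest p and any called gene of each pathway list, and the 5 genes of nearest profile. A gene under this rule is not reported here. Any further gene was picked with its values in view. As alternatives, the libraries were left out singly and as the acinar-rich pair, weighted with array weights, median centred or quantile normalized, and the fit was run with a pseudocount of 0.1 or 1, with a constant prior, and on genes with a mean log2 RPKM of at least 0. Counting called clearance and pathway genes under these settings was an addition made with the data known.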

Additional observations from a re-analysis of the deposited data

How the results depend on the processing

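Of 112 differences of the 8 genes under 14 alternatives, 108 kept their direction and their side of the threshold. None of the 8 genes passed in the main fit, so the side of the threshold could change only where a gene came to pass. The count therefore does not measure how far the differences moved. With array weights Mertk passed (-1.02), 1 of the 8 genes was called instead of 0, and the calls were 143 lower and 14 higher over all genes and 9 lower in the pathway lists, against 55, 3 and 5. Pros1 changed sign with array weights (0.035) and without both acinar-rich libraries (0.094), as did Adam17 (0.041 and 0.058). With a constant prior 1 gene was called higher and the calls of Csf1r, Stab1 and C1qc were lost, and with a pseudocount of 0.1 there were 8 lower pathway calls. Without both acinar-rich libraries 13 lower and 1 higher genes and 0 pathway genes were called. Leaving out 1 library gave 0 to 14 lower and 0 higher calls, 0 to 3 lower pathway calls, and ranges that crossed 0 for Mfge8 (-0.029 to 0.21), Gas6 minus Pros1 (-0.71 to 0.19), Adam17 (-0.11 to 0.039), Adam10 (-0.034 to 0.17) and Csf1 (-0.041 to 0.33). Fewer samples entered those fits; the cause of the other shifts was not tested. No paired analysis was possible because the labels give no replicate numbers shared across groups. With 3 tumours a group no exact test could go below 0.1, and depth is unknown.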
